A study of Mus musculus with 12 samples.

Results

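Type I interferon-stimulated genes were followed across 12 microarrays of mouse primary macrophages. The set was a list of 39 genes that cells of many types are known to switch on under interferon-alpha and interferon-beta. Its genes were found by symbol in the array's annotation, and the list was chosen with earlier results of these data known. The shares of all genes given below therefore describe the set and are not an independent test of it. A probe set that carried 1 gene symbol measured 36 of the 39, among 22180 genes tested in all. Oas1a and Ifi27l2a were covered by probe sets with several symbols and Ifi44 by no probe set of that name, and these 3 genes were not analysed here. Each value below is a level, the log2 of the normalised intensity of 1 gene on 1 array, or a difference between such levels.

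The arrays formed 4 groups of 3. WT macrophages were wild-type cells grown in RPMI medium with fetal bovine serum and antibiotics, and WT TAMs (tumour-associated macrophages) were wild-type cells kept for 72 h with 5TGM1, a mouse multiple myeloma line. KO macrophages and KO TAMs were the corresponding cells with a knockout of Cd36, which encodes a scavenger receptor for long-chain fatty acids and oxidised lipoproteins. The 4 groups address how myeloma cells change macrophages and whether this differs without Cd36. The cells grown alone have no recorded time in culture, so co-culture differences may include it. The sources used here do not give the strain, age and tissue of origin of the macrophages, the way myeloma cells were removed or the origin of the replicates. The p-values then measure the spread among these samples alone, and that spread may be technical. Because 5TGM1 is a mouse line, its transcripts and those of the macrophages hybridise to the same probes. In such bulk RNA, fewer cells of a type and less RNA per cell cannot be told apart.

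Type I interferons bind the receptor pair IFNAR1 and IFNAR2, whose kinases JAK1 and TYK2 pass the signal on by phosphorylation. STAT2 and IRF9 then act in a transcription factor complex, ISGF3, which binds interferon-stimulated response elements in the promoters of its target genes. Macrophages are known both as producers of interferon after nucleic acid sensing and as cells that respond to it, and they keep a basal level of this programme without infection. The products of the targets include sensors of viral RNA, enzymes that degrade or block viral RNA, membrane proteins that hinder viral entry and release, and regulators that amplify or end the signal.

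Cd36 lay between 12.10 and 12.53 on the 6 WT arrays and between 8.45 and 9.66 on the 6 KO arrays, and the KO level in macrophages was 9.53% of the WT intensity. Xist, which is transcribed from an inactive X chromosome, lay between 11.08 and 11.32 on WT arrays and between 3.91 and 4.35 on KO arrays. The Y-linked Uty read 3.27 to 3.91 on WT arrays and 9.71 to 9.99 on KO arrays, so genotype and a female against male pattern cannot be told apart in the comparisons of KO with WT cells below. The mean of 8 macrophage markers lay between 11.48 and 12.02 on all 12 arrays and that of 10 plasma cell and myeloma markers between 5.94 and 6.28. Of these 10, Slamf7 (11.78 to 12.56), Xbp1 (9.66 to 10.21) and Prdm1 (7.32 to 8.83) were also high in macrophages grown alone. Jchain (3.28 to 3.84) and Tnfrsf17 (3.35 to 4.09) were low on all arrays. The steady mean therefore does not measure the share of myeloma RNA.

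Promoter sequences show the element through which these genes are known to be reached. In RefSeq windows of assembly GRCm38.p6, from 250 bases before to 50 bases after the annotated start, 29 of the 39 genes were held. The pattern GAAA, any 2 bases, GAAA, the core of the interferon-stimulated response element, was searched on both strands, so that it reads TTTC, any 2 bases, TTTC on the other. It was found in 14 of the 29 windows (48.3%), against 3.99% of 27025 genes with a window (3.44% of all 32851 windows). With the part after the start left out, 10 of the 29 members (34.5%) and 3.46% of all genes had a match. The shorter palindrome TTCNNNGAA, which STAT dimers bind, was found in 7 of 29 (24.1%) and in 9.55% of all genes. The 160 bases before the start are printed 5′ to 3′ for Ifit1 and Rsad2, which had some of the widest ranges over arrays, for Isg15, whose 3 matches each overlap the next, and for Ddx60 and Trim30a, which passed the test between KO and WT TAMs. Capitals mark the matches to the GAAA pattern on either strand.
Ifit1 (chr19:34640729-34640888, + strand): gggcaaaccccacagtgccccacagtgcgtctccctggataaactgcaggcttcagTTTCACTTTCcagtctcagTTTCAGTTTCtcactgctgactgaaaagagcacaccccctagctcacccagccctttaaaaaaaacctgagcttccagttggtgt
Isg15 (chr4:156200819-156200978, - strand): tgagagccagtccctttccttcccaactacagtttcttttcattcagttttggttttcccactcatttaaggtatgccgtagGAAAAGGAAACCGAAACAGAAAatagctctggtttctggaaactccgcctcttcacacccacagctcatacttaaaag
Rsad2 (chr12:26456453-26456612, - strand): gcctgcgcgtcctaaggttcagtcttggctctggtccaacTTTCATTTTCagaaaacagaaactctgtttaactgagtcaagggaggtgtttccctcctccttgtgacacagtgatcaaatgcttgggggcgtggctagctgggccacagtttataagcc
Ddx60 (chr8:61927927-61928086, + strand): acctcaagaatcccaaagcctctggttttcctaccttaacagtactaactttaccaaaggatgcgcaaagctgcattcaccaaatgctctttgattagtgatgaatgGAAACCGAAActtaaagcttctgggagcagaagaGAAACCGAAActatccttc
Trim30a (chr7:104465194-104465353, - strand): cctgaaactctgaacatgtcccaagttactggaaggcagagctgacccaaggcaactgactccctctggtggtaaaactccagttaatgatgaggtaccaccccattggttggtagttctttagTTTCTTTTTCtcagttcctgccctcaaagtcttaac
Counted from the start, the farthest match began at -104 in Ifit1, -78 in Isg15, -120 in Rsad2, -53 in Ddx60 and -36 in Trim30a. Members with and without a match had similar median differences between KO and WT TAMs, as given with that comparison. Between KO and WT macrophages the median was 0.27 with a match (13 genes) and 0.04 without (14 genes). Whether the match bears on these differences was not tested. A match is a run of letters and was not tested for binding in these cells.

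The levels of these genes moved together from array to array within the TAM groups. Relative to the mean of the WT macrophages, the median of the 36 genes was 0.00, -0.02 and 0.01 on WT macrophage 1, 2 and 3 and 0.16, 0.15 and 0.18 on KO macrophage 1, 2 and 3. It was -0.44, 0.19 and 0.02 on WT TAM 1, 2 and 3, and -0.13, 0.78 and 1.12 on KO TAM 1, 2 and 3. The macrophage arrays of each genotype were thus nearly level, while the first array of each TAM group was low and the other 2 KO TAM arrays were high. The median of all 22180 genes stayed between 0.00 and 0.04 on each array.

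**Figure D1:**
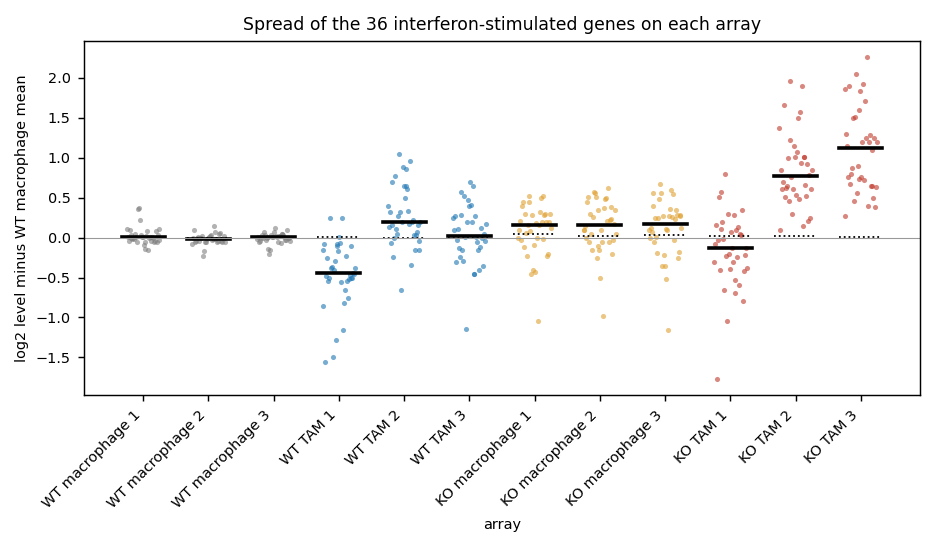
Each point is 1 of the 36 interferon-stimulated genes on 1 array, as its log2 level minus its mean over the 3 WT macrophage arrays. Thick lines mark the median of the 36 genes and dotted lines the median of all 22180 genes. The thick line is lowest on WT TAM 1 (-0.44) and highest on KO TAM 3 (1.12).

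KO TAM 1 was the lowest KO TAM array for all 36 genes, a pattern that 37.0% of all genes showed. WT TAM 1 was the lowest WT TAM array for 35 of 36, the exception being Samd9l (30.4% of all genes), and both held for 35 of 36 (13.4% of all genes). The arrays that were high could be ordered less uniformly. KO TAM 3 gave the highest of the 12 levels for 34 of 36 genes, all but Ifit3 and Parp14 (8.12% of all genes), and KO TAM 2 and 3 lay above each of the other 10 arrays for 29 (2.75% of all genes). For 22 of 36 genes KO TAM 1 lay below and KO TAM 2 and 3 above every KO macrophage array, which 2.48% of all genes did. In WT cells, WT TAM 1 lay below every WT macrophage array for 32 of 36 genes (32.1% of all genes), the exceptions being Oasl2, Ifitm3, Bst2 and Trim25.

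The size of this spread differed between members. KO TAM 1 lay below the mean of KO TAM 2 and 3 by a median of 1.02 over the 36 genes, with a difference from -2.65 for Usp18 to -0.19 for Trim25. For 18 of the 36 the difference was below -1, which held for 0.987% of all genes. WT TAM 1 lay below the mean of WT TAM 2 and 3 by a median of 0.55, from -1.48 to -0.07, and 7 of 36 were below -1 (0.361% of all genes). The median SD within a group (n = 3) was 0.05 for the 36 genes in WT macrophages and 0.06 in KO macrophages, against 0.10 for all genes in both. It was 0.33 in WT TAMs and 0.62 in KO TAMs, against 0.14 for all genes in both. The median SD of the members was therefore below that of all genes in cells grown alone and above it in co-culture. All 36 members had a mean level (6.51 to 11.75) above the median of all genes (5.34). The SDs were not compared among genes of like level.

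Marker genes of other cells were read on the same arrays. The mean of 7 fibroblast and stromal markers was 7.18, 8.31 and 7.30 on WT TAM 1, 2 and 3 and 6.96, 6.57 and 6.04 on KO TAM 1, 2 and 3. It was 6.81 to 6.91 in WT and 5.49 to 5.60 in KO macrophages. Over KO TAM 1, 2 and 3, Col1a1, Col1a2 and Pdgfra fell at each step. Col3a1 (6.15, 6.45 and 5.33), Pdgfrb (5.72, 5.54 and 5.76), Dcn (8.08, 6.96 and 8.02) and Thy1 (5.27, 5.39 and 5.42) did not. The mean of 4 measured B cell markers of 5 was 5.01, 5.45 and 5.11 on WT TAM 1, 2 and 3. On KO TAM 1, 2 and 3 it was 5.32, 6.22 and 6.21, so the mean was also lowest on the first array of each TAM group. In KO TAMs this came from Cd79b (6.13, 8.30 and 8.17) and Cd22 (7.41, 8.66 and 8.99). Pax5 was highest on KO TAM 1 (4.44, 4.40 and 4.24), and Ms4a1 was low on all 3 (3.31, 3.53 and 3.43). The mean of 6 dendritic cell markers, with Bst2 left out because it is a member, lay between 5.04 and 5.35 on all 12 arrays. The part of these cells in the levels above was not tested. The mean of the macrophage markers was 12.02 on KO TAM 1 and 11.83 and 11.84 on KO TAM 2 and 3.

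**Figure D2:**
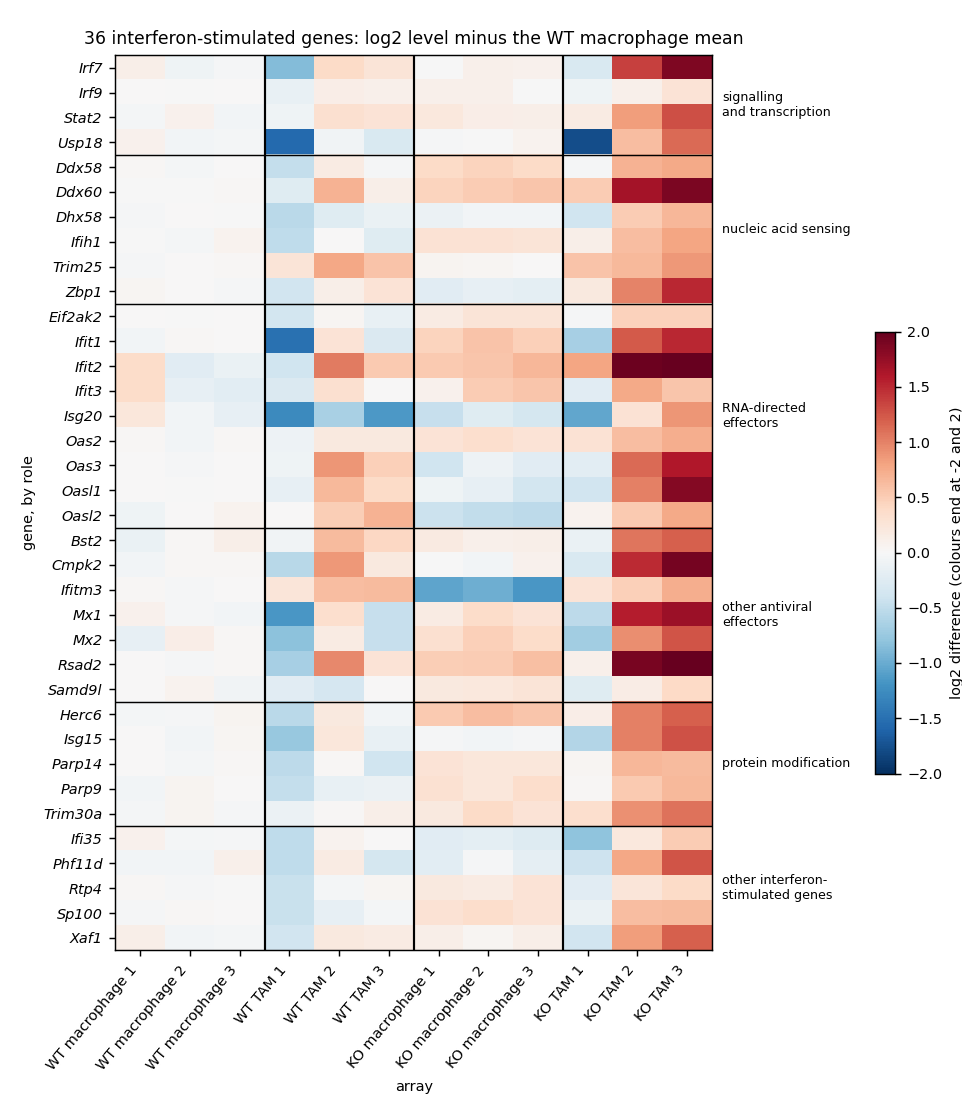
Each row is 1 of the 36 interferon-stimulated genes, grouped by role, and each column 1 of the 12 arrays. The colour is the log2 level minus the gene's mean over the 3 WT macrophage arrays. The columns of KO TAM 2 and 3 are red in nearly all rows, with medians of 0.78 and 1.12, and the columns of WT TAM 1 and KO TAM 1 are mostly blue, with medians of -0.44 and -0.13.

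Among the 4 genes of signalling and transcription, Irf7 and Usp18 varied widely and Irf9 little. Irf7, a transcription factor that amplifies interferon production, read 9.63, 9.44 and 9.50 in WT macrophages and 9.51, 9.62 and 9.61 in KO macrophages. In WT TAMs it read 8.66, 9.91 and 9.77 and in KO TAMs 9.21, 10.89 and 11.38. The first array of each TAM group lay below every macrophage array of its genotype, and the other 2 lay above. Usp18, which removes ISG15 from proteins and blocks the receptor, read 10.00, 9.86 and 9.87 in WT and 9.88, 9.90 and 9.98 in KO macrophages. It read 8.35, 9.84 and 9.60 in WT TAMs and 8.14, 10.52 and 11.05 in KO TAMs, so the KO TAM arrays enclosed all other arrays. Irf9 and Stat2, which act in ISGF3, had narrower ranges, since Irf9 lay between 8.60 and 9.02 on the 12 arrays and Stat2 between 9.31 and 10.68.

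The 6 genes of nucleic acid sensing included both a gene that was higher in TAMs of each genotype and genes that followed the wider pattern. Trim25, a ubiquitin ligase that activates RIG-I, read 9.17, 9.19 and 9.22 in WT macrophages and 9.44, 9.96 and 9.76 in WT TAMs. It read 9.25, 9.23 and 9.20 in KO macrophages and 9.76, 9.84 and 10.06 in KO TAMs, so no TAM array overlapped the macrophage arrays of its genotype. Ifih1, which encodes the double-stranded RNA sensor MDA5, read 10.22, 10.19 and 10.30 in WT macrophages, 9.72, 10.23 and 9.99 in WT TAMs, 10.52, 10.52 and 10.48 in KO macrophages and 10.34, 10.85 and 11.02 in KO TAMs. Every KO array of a culture type lay above every WT array of the same type. Zbp1, a sensor of Z-form nucleic acids that can start necroptosis, read 9.47, 9.43 and 9.40 in WT macrophages, 9.05, 9.54 and 9.71 in WT TAMs, 9.20, 9.27 and 9.24 in KO macrophages and 9.62, 10.42 and 10.93 in KO TAMs. Its KO TAM levels lay above those of KO macrophages on all 3 arrays, but KO TAM 1 lay within the WT TAM range. Ddx60, a helicase linked to RNA sensing, read 8.65, 8.65 and 8.69 in WT macrophages, 8.41, 9.36 and 8.77 in WT TAMs, 9.11, 9.17 and 9.22 in KO macrophages and 9.17, 10.32 and 10.55 in KO TAMs. KO TAM 1 equalled KO macrophage 2 and lay below WT TAM 2. Ddx58, which encodes RIG-I, ranged from 9.79 to 11.03 and Dhx58, which encodes the related helicase LGP2, from 8.36 to 9.57.

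**Figure D3:**
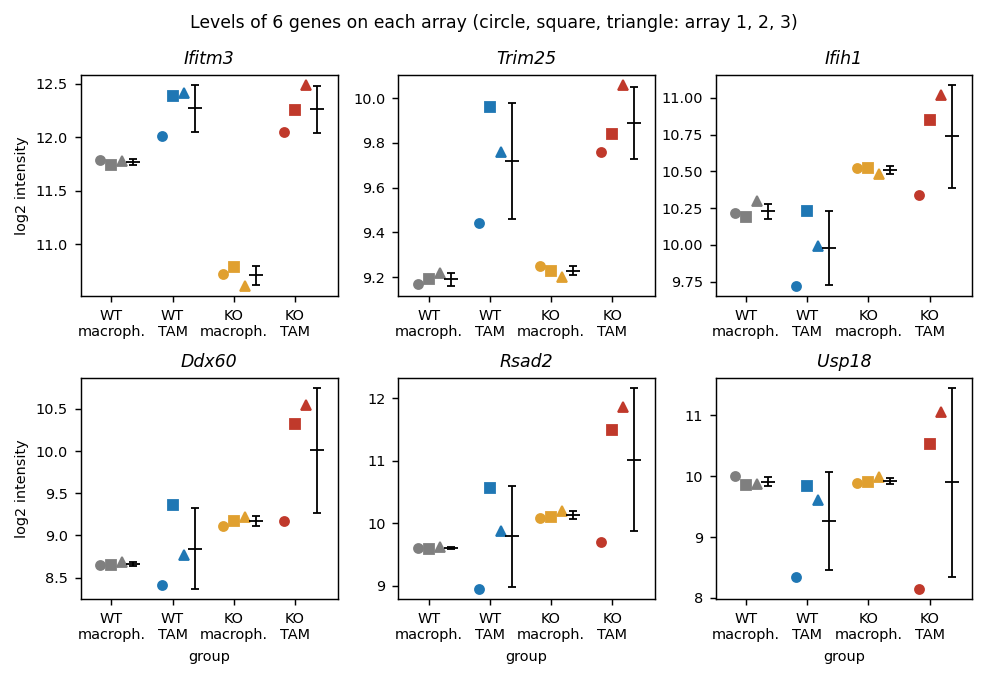
Log2 levels of Ifitm3, Trim25, Ifih1, Ddx60, Rsad2 and Usp18 on each of the 12 arrays, with a circle, square and triangle for arrays 1, 2 and 3 of a group and the group mean ± SD (n = 3) beside them. Vertical axes differ and do not start at 0. Ifitm3 is lowest in KO macrophages (10.61 to 10.79), and Usp18 spreads from 8.14 to 11.05 in KO TAMs.

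The 9 measured effectors that act on RNA or translation held the gene with the widest range. Ifit1, which binds viral RNA without host cap methylation, read 9.67, 9.74 and 9.73 in WT and 10.17, 10.29 and 10.20 in KO macrophages, a separation without overlap. In TAMs it read 8.23, 9.99 and 9.43 in WT and 9.06, 10.94 and 11.23 in KO cells, and its range over the 12 arrays was 3.0. Oasl2, an oligoadenylate synthetase-like protein, read 10.60, 10.70 and 10.76 in WT macrophages, 10.70, 11.18 and 11.39 in WT TAMs, 10.26, 10.19 and 10.17 in KO macrophages and 10.76, 11.22 and 11.45 in KO TAMs. It was one of the members whose KO macrophage levels lay below all WT macrophage levels, while its TAM levels overlapped between the genotypes. Oas2, which makes the oligoadenylates that activate RNase L, read 10.44, 10.35 and 10.44 in WT macrophages, 10.31, 10.60 and 10.61 in WT TAMs, 10.69, 10.75 and 10.68 in KO macrophages and 10.70, 11.02 and 11.14 in KO TAMs. Eif2ak2, the kinase PKR that halts translation, read 9.85, 9.83 and 9.84 in WT macrophages, 9.47, 9.88 and 9.69 in WT TAMs, 10.00, 10.10 and 10.09 in KO macrophages and 9.82, 10.30 and 10.30 in KO TAMs. The KO TAM arrays of Oas2 lay above all WT TAM arrays, and those of Eif2ak2 overlapped them through KO TAM 1. The other 5, Ifit2, Ifit3, Isg20, Oas3 and Oasl1, ranged from 6.28 to 8.72, 6.03 to 7.08, 6.96 to 9.13, 7.90 to 9.90 and 7.12 to 9.34.

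Of the 7 other antiviral effectors, Ifitm3 stood out by its direction and Rsad2, Mx1 and Cmpk2 by their spread. Ifitm3, a membrane protein that hinders entry of enveloped viruses through endosomes, read 11.79, 11.74 and 11.78 in WT and 10.72, 10.79 and 10.61 in KO macrophages. In TAMs it read 12.01, 12.38 and 12.41 in WT and 12.05, 12.25 and 12.49 in KO cells. It was thus lower in KO than in WT macrophages without overlap, and the TAM arrays of both genotypes lay together above them. Rsad2, the viperin enzyme that makes a chain-terminating nucleotide, read 9.60, 9.58 and 9.62 in WT macrophages, 8.94, 10.56 and 9.87 in WT TAMs, 10.09, 10.10 and 10.20 in KO macrophages and 9.70, 11.50 and 11.86 in KO TAMs. Cmpk2, its neighbour in the genome and a nucleotide kinase, read 8.86, 8.94 and 8.93 in WT macrophages, 8.35, 9.77 and 9.10 in WT TAMs, 8.90, 8.86 and 9.0 in KO macrophages and 8.60, 10.40 and 10.83 in KO TAMs. Rsad2 separated the macrophages by genotype and Cmpk2 did not, while both had the first array of each TAM group lowest. Mx1, a dynamin-like GTPase, read 6.47, 6.37 and 6.34 in WT macrophages, 5.23, 6.72 and 5.93 in WT TAMs, 6.55, 6.76 and 6.66 in KO macrophages and 5.86, 7.96 and 8.10 in KO TAMs. Mx2, the tetherin gene Bst2 and Samd9l ranged from 6.10 to 8.17, 10.29 to 11.62 and 7.59 to 8.33.

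Among the 5 genes of protein modification, 4 had a higher mean in KO than in WT cells of both culture types. Trim30a, a tripartite motif protein that dampens Toll-like receptor signalling, read 7.79, 7.89 and 7.80 in WT macrophages, 7.72, 7.86 and 7.95 in WT TAMs, 8.03, 8.21 and 8.11 in KO macrophages and 8.17, 8.75 and 8.92 in KO TAMs. No KO array overlapped a WT array. Herc6, the ligase that attaches ISG15 in mice, read 10.11, 10.13 and 10.20 in WT macrophages, 9.61, 10.34 and 10.09 in WT TAMs, 10.67, 10.77 and 10.70 in KO macrophages and 10.28, 11.16 and 11.35 in KO TAMs. KO TAM 1 lay below WT TAM 2 for this gene. Parp9, which acts with a ubiquitin ligase partner at damaged DNA, read 9.25, 9.35 and 9.31 in WT macrophages, 8.83, 9.15 and 9.18 in WT TAMs, 9.60, 9.53 and 9.65 in KO macrophages and 9.33, 9.82 and 9.95 in KO TAMs. Parp14, an ADP-ribosyltransferase, read 10.79, 10.75 and 10.82 in WT macrophages, 10.27, 10.82 and 10.39 in WT TAMs, 11.07, 11.01 and 11.02 in KO macrophages and 10.83, 11.45 and 11.43 in KO TAMs. Both separated KO from WT arrays in macrophages and in TAMs, Parp14 in TAMs by 10.83 against 10.82. Isg15, the ubiquitin-like modifier itself, ranged from 7.98 to 10.02 with 8.68 to 8.78 on all macrophage arrays of both genotypes. The remaining 5 members, Ifi35, Rtp4, Xaf1, Phf11d and Sp100, ranged from 7.87 to 9.17, 9.78 to 10.60, 8.62 to 10.19, 6.34 to 8.10 and 10.63 to 11.71.

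TAMs of WT cells had higher Trim25 and Ifitm3 than WT macrophages, and no other member passed the test. With limma over all 12 arrays, 2 of 36 genes were called higher and 0 lower, where a call is a Benjamini-Hochberg adjusted p under 0.05 over 22180 genes, and 5.89% of all genes were called higher and 5.66% lower. The share of members called (5.56%) was near that background, and 4 members had an unadjusted limma p under 0.05. Trim25 rose by 0.53 ± 0.12 (SE), from 9.19 ± 0.03 to 9.72 ± 0.26 (SD, n = 3; limma adjusted p = 0.0153), and Ifitm3 by 0.50 ± 0.13, from 11.77 ± 0.03 to 12.27 ± 0.22 (limma adjusted p = 0.0265). The median difference of the 36 genes was -0.10, against 0.01 for all genes, with 15 above 0. All TAM arrays lay above all macrophage arrays for 2 members and below for 5 (Isg20, Usp18, Dhx58, Parp9 and Sp100), against 15.5% and 14.6% of all genes. The call of Trim25 was lost without WT macrophage 1 or 2 (adjusted p up to 0.0588) and that of Ifitm3 without WT macrophage 1, 2 or 3 or WT TAM 2 or 3 (up to 0.0962). The median turned to 0.07 without WT TAM 1. WT TAM 2 and KO TAM 1 are the arrays that stand farthest from their groups over all genes. Without these 2 arrays, 6 members were called lower (8.19% of all genes), among them Isg20 (-1.21), Mx1 (-0.81) and Parp14 (-0.46). WT TAM 2 was also the highest WT TAM array by the median of the members (0.19), so leaving it out lowers the WT TAM levels.

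TAMs of KO cells had higher Ifitm3, Oasl2, Trim25 and Zbp1 than KO macrophages. These were 4 of 36 members called higher, with 0 lower, against 2.9% of all genes called higher and 3.63% lower. Ifitm3 rose by 1.55 ± 0.13, 2.93-fold, from 10.71 ± 0.09 to 12.26 ± 0.22 (SD, n = 3; limma adjusted p = 6.18e-05). Oasl2 rose by 0.94 ± 0.18 from 10.21 ± 0.05 to 11.15 ± 0.35 (limma adjusted p = 0.0114) and Trim25 by 0.66 ± 0.12 from 9.23 ± 0.02 to 9.89 ± 0.16 (limma adjusted p = 0.00805). Zbp1 rose by 1.09 ± 0.26 from 9.24 ± 0.04 to 10.32 ± 0.66 (limma adjusted p = 0.0281). These 4 and Ifit2 had no overlap between groups (5 of 36 higher and 0 lower, against 11.7% and 14.6% of all genes). The median difference of the 36 was 0.43, against -0.01 for all genes, with 32 above 0.

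The count in KO cells depended on KO TAM 1. Without it, 20 of 36 members were called higher, against 2.5% of all genes, with Cmpk2 at 1.70, Oasl1 at 1.62, Oas3 at 1.61 and Irf7 at 1.55, and the median was 0.87. Ifitm3, Oasl2 and Trim25 passed when each array was left out in turn (adjusted p up to 0.000689, 0.0486 and 0.0371). Zbp1 passed without KO TAM 1 and lost its call without KO macrophage 1, 2 or 3 or without KO TAM 2 or 3 (up to 0.0914). The mean of the stromal markers was 6.96 on KO TAM 1 against 6.57 and 6.04 on KO TAM 2 and 3, and that of the B cell markers 5.32 against 6.22 and 6.21. Within each list some markers did not follow the mean, as given above. The part of either cell type in the difference between these arrays was not tested.

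**Figure D4:**
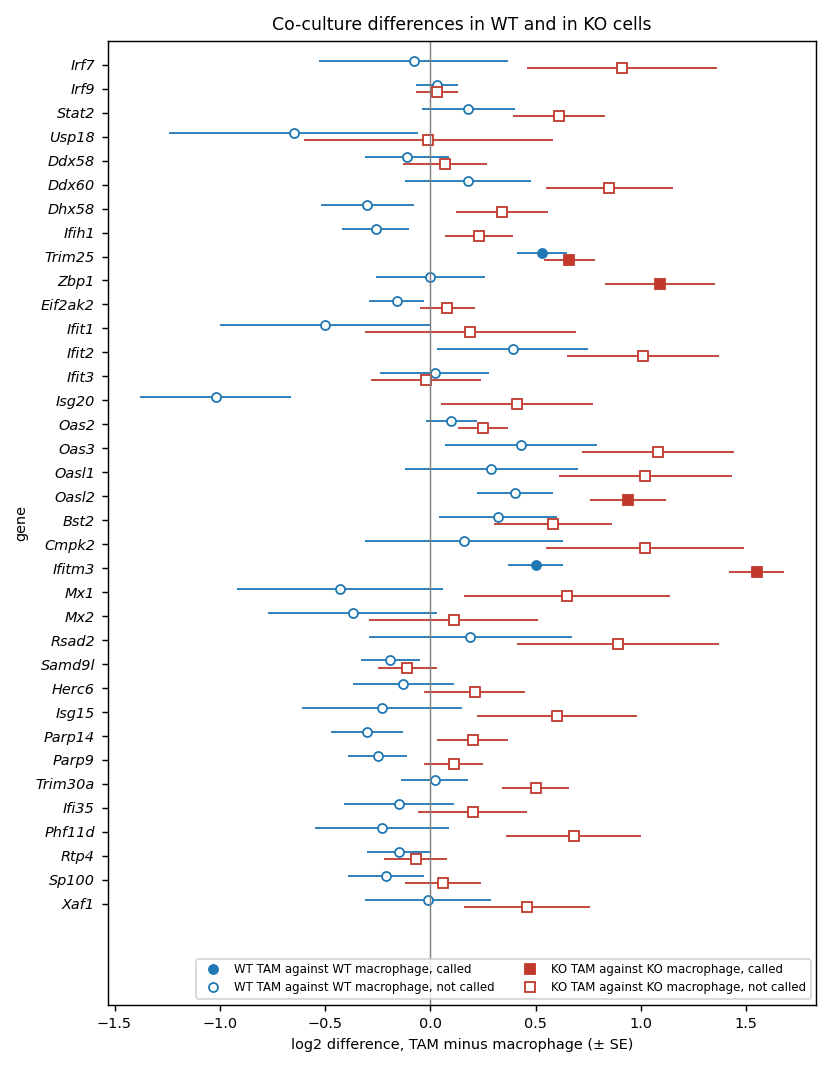
Log2 difference of TAMs from macrophages (horizontal axis, ± SE from limma) for each of the 36 genes, in WT cells (circles) and in KO cells (squares). Filled symbols are called, open symbols are not. Most squares lie to the right of 0 (median 0.43) and the circles lie on both sides (median -0.10), and Ifitm3 has the largest difference in KO cells (1.55).

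Between macrophages grown alone, KO cells had lower Ifitm3, and no other member passed the test over all 12 arrays. Ifitm3 fell by 1.06 ± 0.13 on the log2 scale, from 11.77 ± 0.03 in WT to 10.71 ± 0.09 in KO macrophages, 2.09-fold (SD, n = 3; limma adjusted p = 0.000565), and passed without each array in turn (up to 0.00435). It was the only call among 36 members, against 5.19% of all genes called higher and 6.13% lower, and 4 members had an unadjusted p under 0.05. Yet 18 of 36 members lay higher on all 3 KO than on all 3 WT arrays and 8 lower, against 20.8% and 17.7% of all genes. The 18 were Ifit1, Ifit2, Mx1, Mx2, Oas2, Rsad2, Stat2, Ifih1, Ddx58, Eif2ak2, Trim30a, Rtp4, Parp9, Parp14, Herc6, Samd9l, Ddx60 and Sp100. The 8 were Isg20, Oas3, Oasl1, Oasl2, Dhx58, Ifi35, Ifitm3 and Zbp1, so the members did not shift one way. The median difference was 0.18, against 0.04 for all genes.

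The test of the macrophages took its spread from all 4 groups, and the spread of these genes was largest in TAMs. The median standard error of the 36 was 0.26 with all arrays and 0.07 when limma was fitted to the 6 macrophage arrays alone. In that fit 14 members were called higher and 3 lower, against 10.1% and 11.2% of all genes. The highest were Ifit2 (0.59), Herc6 (0.57), Rsad2 (0.53), Ifit1 (0.50) and Ddx60 (0.50), and the 3 lower were Ifitm3 (-1.06), Oasl2 (-0.48) and Ifi35 (-0.23). For these genes the KO and WT values differ by more than the spread between the macrophage arrays, while genotype and the female against male pattern cannot be told apart.

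Between TAMs, 9 members were called higher in KO cells over all 12 arrays, and 0 in a fit to the 6 TAM arrays alone (2.88% of all genes). The 9 act in RNA sensing (Ifih1, Ddx60 and Zbp1), translation and RNA control (Oas2 and Eif2ak2) and protein modification (Trim30a, Herc6, Parp9 and Parp14). These were 9 of 36 members, with 0 lower, against 5.03% of all genes called higher and 7.19% lower. Ddx60 was higher by 1.17 ± 0.30, 2.25-fold, with 10.01 ± 0.74 in KO and 8.84 ± 0.48 in WT TAMs (SD, n = 3; limma adjusted p = 0.0263). Trim30a was higher by 0.77 ± 0.16, with 8.62 ± 0.39 against 7.85 ± 0.11 (limma adjusted p = 0.00772), and Ifih1 by 0.76 ± 0.16, with 10.74 ± 0.35 against 9.98 ± 0.25 (limma adjusted p = 0.00962). The other 6 were Herc6 (0.91), Zbp1 (0.89), Parp14 (0.74), Parp9 (0.65), Eif2ak2 (0.46) and Oas2 (0.44), with limma adjusted p between 0.0129 and 0.0436. The median difference of the 36 was 0.62, against 0.02 for all genes, and 35 lay above 0, Ifitm3 being the exception at -0.01. The arrays of the groups did not overlap for 5 members, Oas2, Ifih1, Trim30a, Parp9 and Parp14 (13.9%, against 12.8% of all genes higher and 11.8% lower).

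Most of these calls rested on particular arrays. Only Ifih1 and Trim30a passed when each array was left out in turn (adjusted p up to 0.0415 and 0.0356), and leaving out KO TAM 2, KO TAM 3 or WT TAM 1 left 2 members called. Without WT TAM 3 there were 4, and the shares of all genes called in these fits are not given here. Without KO TAM 1, 30 of 36 were called, against 7.28% of all genes higher, with Mx1 at 2.07, Rsad2 at 1.89, Ifit1 at 1.86 and Irf7 at 1.69, and the 6 not called were Irf9, Trim25, Ifit3, Oasl2, Ifitm3 and Ifi35. When limma was fitted to the 6 TAM arrays alone, 0 of 36 were called (2.88% of all genes) and 13 had an unadjusted p under 0.05. The median standard error of the 36 was then 0.31, against 0.26 with all arrays. The fit over all arrays thus took part of its spread from the macrophage arrays, where these genes varied less than in TAMs. Members whose promoter window held the GAAA pattern had a median difference of 0.59 (13 genes) and those without it 0.56 (14 genes). The stromal marker mean was 7.18 to 8.31 on WT TAM and 6.04 to 6.96 on KO TAM arrays, without overlap, and the B cell marker mean 5.01 to 5.45 and 5.32 to 6.22. The stromal markers Dcn and Thy1 went the other way, with means of 7.69 and 5.36 in KO against 7.05 and 5.10 in WT TAMs. Among the B cell markers, Cd79b (7.53 against 6.04) and Cd22 (8.35 against 7.14) differed most. The part of either cell type in the genotype difference was not tested.

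**Figure D5:**
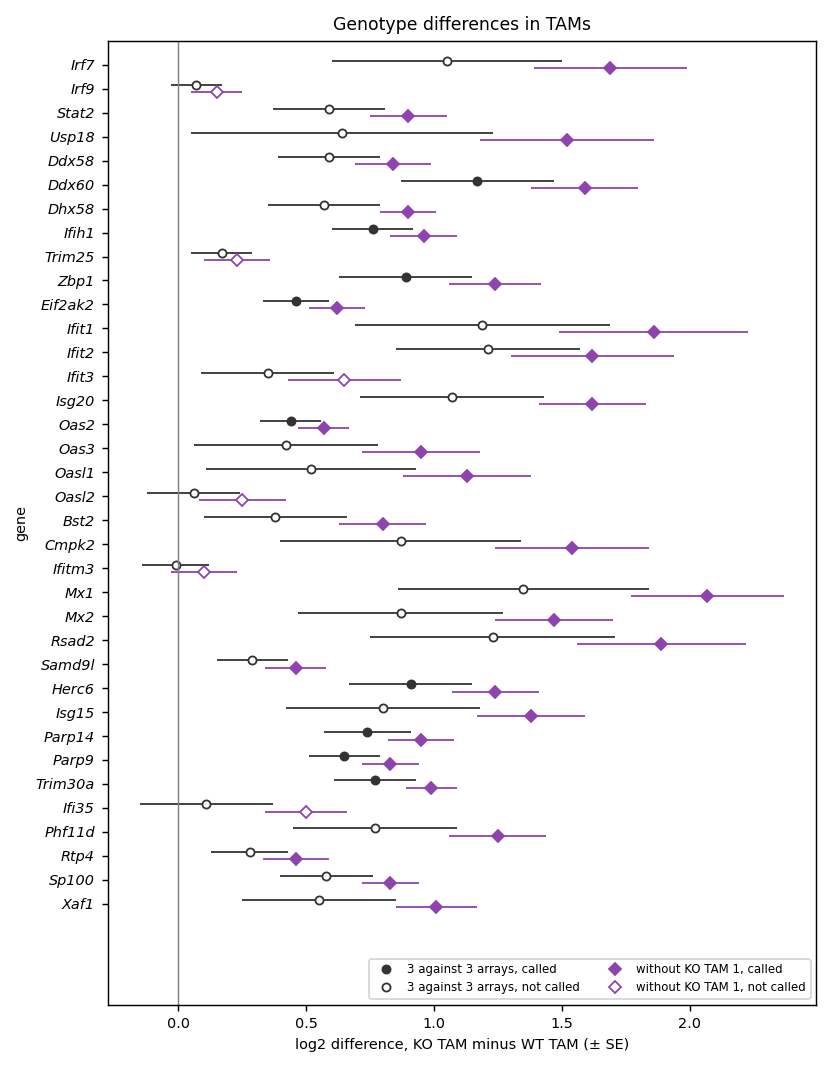
Log2 difference of KO from WT TAMs (horizontal axis, ± SE from limma) for each of the 36 genes, with 3 arrays a group (circles) and without KO TAM 1 (diamonds). Filled symbols are called, open symbols are not. All but 1 circle lie to the right of 0 (median 0.62, 9 called), and the diamonds lie farther to the right (median 0.95, 30 called).

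The difference between the genotypes in their response to co-culture, tested as an interaction, was called for Ifitm3 alone among the 36. Its co-culture difference was 1.05 ± 0.18 larger in KO than in WT cells (limma adjusted p = 0.0473), 1 of 36 against 0.104% of all genes called higher and 0.0902% lower. The comparison uses the low level of Ifitm3 in KO macrophages, since the TAM groups differed by -0.01. The median of the interaction was 0.49, against -0.02 for all genes, with 35 above 0 and 3 at an unadjusted p under 0.05. The call of Ifitm3 was lost without any array other than WT TAM 2 or KO TAM 1 (adjusted p up to 0.17). Without KO TAM 1, 7 were called (1.25% of all genes higher), Isg20, Zbp1, Isg15, Phf11d, Ifitm3, Dhx58 and Trim30a, with values from 0.70 for Trim30a to 1.97 for Isg20. Without both WT TAM 2 and KO TAM 1 there were 27 (2.96% of all genes higher). By the median of the members, WT TAM 2 was the highest WT TAM array (0.19) and KO TAM 1 the lowest KO TAM array (-0.13). Leaving both out thus moves the TAM groups apart. Without WT TAM 1, the lowest WT TAM array (-0.44), 0 were called (3 at an unadjusted limma p under 0.05) and the median was 0.28.

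Genes around the interferon pathway were counted against the shares of all genes called, which were 5.89% higher and 5.66% lower in WT TAMs, 2.9% and 3.63% in KO TAMs, 5.19% and 6.13% in KO macrophages and 5.03% and 7.19% in KO against WT TAMs. Of 19 measured interferon genes of 21, Ifna4 was called lower in TAMs of both genotypes (-0.41 in WT and -0.46 in KO cells), and KO macrophages had more Ifna4 (0.37) and Ifna6 (0.61) than WT macrophages. Ifna7 (0.54) was higher in KO than in WT TAMs, and probes of the closely alike interferon-alpha genes can pick up more than their own transcript. Ifnb1, the interferon that macrophages release first, read 3.09 to 3.73 over the 12 arrays with no call. Of the 19 interferon genes, 13 lay below the median level of all genes (5.34). Ifna6 read 4.58 to 5.03 in WT and 5.47 to 5.49 in KO macrophages, near that median. Of 10 measured genes of 11 for receptors and JAK-STAT signalling, 2 were higher and 1 lower in WT TAMs than in WT macrophages, 0 in KO TAMs (2 at an unadjusted limma p under 0.05), 2 higher in KO macrophages and 2 higher in KO than in WT TAMs. The receptor chain Ifnar2 was higher by 0.39 in WT TAMs and by 0.29 in KO macrophages, and the kinases Jak2 (0.44) and Tyk2 (0.38) in KO against WT TAMs. Jak2 was lower by 0.39 in WT TAMs than in WT macrophages (-0.39), and Il10rb, a chain of the interferon-lambda receptor, was higher (0.36). Ifnar1 read 10.48 to 10.50 in WT macrophages, 10.93, 10.59 and 10.72 in WT TAMs, 10.10, 10.04 and 10.04 in KO macrophages and 10.92, 10.38 and 10.12 in KO TAMs, highest on the first array of each TAM group, and was not called.

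Sensing genes upstream of interferon gave calls in each comparison of groups. Of 13 measured of 16, 6 were higher and 4 lower in WT TAMs (5.89% and 5.66% of all genes), 4 higher and 1 lower in KO TAMs (2.9% and 3.63%), 3 higher in KO macrophages (5.19%) and 5 higher in KO than in WT TAMs (5.03%). Tlr9, the receptor for unmethylated CpG DNA, read 8.88, 8.71 and 8.78 in WT macrophages, 7.22, 7.94 and 7.27 in WT TAMs, 9.81, 9.85 and 9.81 in KO macrophages and 8.42, 9.71 and 9.96 in KO TAMs. It was lower by 1.31 in WT TAMs than in WT macrophages (-1.31) and higher by 1.89 in KO than in WT TAMs. Irf8, a transcription factor of the macrophage and dendritic cell lineages, was called higher in WT TAMs (0.35), KO TAMs (0.54), KO macrophages (0.47) and KO against WT TAMs (0.66). Its 3 KO TAM arrays read 9.19, 9.31 and 9.29, so KO TAM 1 lay close to the other KO TAM arrays. With the mean of all its probe sets, 3 of these calls were lost, with differences of 0.15 between macrophages (limma adjusted p = 0.452), 0.28 in WT TAMs (0.155) and 0.37 between KO and WT TAMs (0.0516). The double-stranded RNA receptor Tlr3 was higher by 0.60 in WT and 0.77 in KO TAMs, and the single-stranded RNA receptor Tlr7 was higher by 0.54 in WT TAMs, by 0.81 in KO macrophages and by 0.64 in KO against WT TAMs. The transcription factor gene Irf3 lay between 7.26 and 7.43 on the 12 arrays.

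Irf1, a transcription factor induced by both types of interferon, ran against the members from array to array in TAMs. It read 7.41, 7.35 and 7.42 in WT macrophages, 8.62, 7.77 and 8.24 in WT TAMs, 7.85, 7.83 and 7.80 in KO macrophages and 9.08, 8.19 and 8.26 in KO TAMs. The first array of each TAM group was the highest of its group for Irf1 and the lowest for nearly all members. It rose by 0.82 ± 0.23 in WT TAMs (limma adjusted p = 0.0386), a call that ended when WT macrophage 1, 2 or 3 or WT TAM 1 or 3 was left out (up to 0.142). Of 11 measured negative regulators of 12, 4 were lower in WT TAMs (Ptpn6 by -0.88, Samhd1 by -0.76, Ptpn2 by -0.43 and Pias1 by -0.34), Nlrc5 was higher in KO TAMs than KO macrophages (0.65) and KO TAMs had more Samhd1 (0.60) and Pias1 (0.31) than WT TAMs. Socs1, which blocks JAK kinases, lay between 5.64 and 6.13.

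A further list of 52 interferon-stimulated genes outside the set, of which 44 were measured, was counted in the same way. In WT TAMs 1 was called higher and 0 lower (5.89% and 5.66% of all genes), in KO TAMs 10 and 0 (2.9% and 3.63%), in KO macrophages 2 and 2 (5.19% and 6.13%), in KO against WT TAMs 14 and 0 (5.03% and 7.19%) and in the interaction 0 (16 at an unadjusted limma p under 0.05). Their median differences in the same order were -0.10, 0.49, 0.11, 0.58 and 0.48. Without KO TAM 1, 26 were called higher in KO TAMs against KO macrophages (2.5% of all genes in that fit). In KO against WT TAMs there were then 31 (7.28% of all genes) and in the interaction 8 (1.25%). The DNA-binding factor Ifi205 was the member of this list called in WT TAMs (2.35), and it was also called in KO TAMs (3.32).

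The guanylate-binding protein Gbp5, which acts in inflammasome activation, rose by 1.52 in KO TAMs over KO macrophages and was higher by 1.32 in KO than in WT TAMs. Its arrays read 5.82, 5.44 and 5.62 in WT TAMs and 6.94, 6.46 and 7.42 in KO TAMs, so KO TAM 1 was not the lowest. KO TAMs also exceeded WT TAMs in Ms4a4c (1.99), the chemokine Ccl5 (1.82) and Slfn1 (1.54), and their calls were lost without WT TAM 1 (adjusted p up to 0.107, 0.0615 and 0.104), among other arrays. The chemokine Cxcl10 read 6.66, 7.16 and 7.16 in WT TAMs and 7.10, 7.61 and 8.55 in KO TAMs and was not called. Of 18 genes that lean to interferon-gamma, 1 was higher and 3 lower in WT TAMs, 0 were called in KO TAMs against KO macrophages (7 at an unadjusted limma p under 0.05), 2 were higher and 3 lower in KO macrophages and 4 were higher in KO TAMs than WT TAMs. Gbp2 was not analysed here. Over all these related lists, 28 genes were called between KO and WT TAMs, where 5.03% of all genes were called higher and 7.19% lower. Of the 28, 14 kept the call without each array in turn. When limma was fitted to the 6 TAM arrays alone, 3 kept it (Gbp5, Gbp7 and Irf8), and 2.88% of all genes were called. Over all 12 arrays, the call of Irf8 was lost with the mean of its probe sets. In WT TAMs 13 of 22 kept it without each array, in KO TAMs 8 of 17 and between macrophages 7 of 16. Among the calls named above that did not were those of Ifna4, Ifna7, Il10rb, Nlrc5 and Pias1, of Ifnar2 between macrophages, of Tyk2 between TAMs and of Tlr9 and Irf8 in WT TAMs.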

How the data were processed

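The data were single-channel arrays of 12 samples, 3 per group, each placed in its group by its title, which also gives its replicate number. The authors deposited intensity values per probe set, produced by RMA per the submitters' processing notes, which subtracts background, normalises arrays by quantiles and summarises probes, so a change common to most genes would not show. Since the lowest deposited intensity was 3.57 and array medians lay between 31.3 and 33.3, the scale was read as linear, and log2 was applied with no pseudocount. The submitters' notes also name limma. No version of either and no genome build is given in the sources used here. The number of arrays limits the precision.

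Of 41345 probe sets, 23521 had 1 symbol, 1814 several and 16010 none, and those with several or none were left out. Entrez identifiers of 23328 probe sets matched a RefSeq table of assembly GRCm38.p6, and 0 symbols changed. For 1082 genes with several probe sets the one with the highest mean was kept, which left 22180 genes. Ifi35 and Sp100 had more than 1. Another Ifi35 probe set read 4.79 to 5.70, and 3 others of Sp100 read 4.77 to 6.83, 3.24 to 4.15 and 9.37 to 10.56. Sequences came from RefSeq promoter windows of the same assembly.

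Groups were compared with lmFit and eBayes of limma 3.58.1 (R 4.3.3) on 4 group means over 12 arrays with 8 residual degrees of freedom, and p was adjusted by Benjamini-Hochberg over all genes. The procedure was tested on simulated data. Alternatives were a repeated quantile normalisation, centring on array medians, a mean level of at least 5, the mean of all probe sets, only the groups compared, array weights, trended and robust variance, the replicate number as a block, an offset of 16, each array left out, and WT TAM 2 with KO TAM 1 left out. The members, the related gene lists and the marker lists were chosen with earlier results of these data known. Array values are given for members called in at least 1 comparison, the 6 with the widest range and the 6 with the largest gap of KO TAM 1, which were the same 6 (Ifit1, Usp18, Rsad2, Mx1, Irf7 and Cmpk2). From related lists, up to 4 called genes per comparison and a few fixed genes could be named. Isg15 and the exceptions to a pattern were named after their values were seen.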

Additional observations from a re-analysis of the deposited data

Results flagged for a closer look

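The co-culture difference of Ifitm3 differed between the genotypes by a test of the difference itself, the interaction term of limma. It was 1.05 larger in KO than in WT cells. Leaving out any array other than WT TAM 2 or KO TAM 1 ended this call, with adjusted p up to 0.17, and the cause was not tested. Groups of 3 arrays were not tested for an outlying array within the group.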

How the results depend on the processing

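Of 17 called pairs of member and comparison, 6 kept their call without each array in turn and 11 did not, 6 kept it under all of the other 10 alternatives, and 0 reversed. Without 1 array, the members called ranged from 0 to 2 in WT TAMs against WT macrophages (median difference -0.20 to 0.07), 3 to 20 in KO TAMs against KO macrophages (0.14 to 0.87), 1 in KO against WT macrophages (0.18 to 0.20), 2 to 30 in KO against WT TAMs (0.42 to 0.95) and 0 to 7 in the interaction (0.25 to 0.83). In that order of comparisons, array weights gave 4, 21, 5, 30 and 11 calls. Leaving out WT TAM 2 and KO TAM 1 gave 8, 26, 9, 32 and 27, with a median interaction of 0.94. The share of all genes called higher in the interaction also rose, from 0.104% to 2.96% without these 2 arrays. Shares for array weights and for most fits without 1 array are not given here. By the median of the members, WT TAM 2 was high and KO TAM 1 low in its group, so leaving both out moves the TAM groups apart. With only the groups compared there were 17 calls between macrophages and 0 between TAMs (13 at an unadjusted limma p under 0.05). The interaction had 0 calls with quantile normalisation repeated (4 unadjusted), with arrays centred on their medians (3 unadjusted) and with the replicate block (9 unadjusted), and the cause was not tested. Centring moved the median between macrophages to 0.21. Deviations of same-numbered arrays correlated between -0.06 and 0.27 over all pairs of groups, and the main fit did not treat the numbers as pairs. This range does not settle whether the TAM arrays were paired. Between WT and KO TAMs they correlated at 0.27, 0.25 and 0.03 for numbers 1, 2 and 3, and differently numbered arrays between -0.28 and 0.07. The labels do not say whether a number marks a shared culture or day. With the block, calls numbered 12 rather than 9 between TAMs and stayed at 2, 4 and 1 in the other comparisons of groups. The array weights were 0.33 for WT TAM 2 and 0.27 for KO TAM 1. With 3 arrays a group, differences near the standard error of most members (median 0.26) were not detectable.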
